A study of Apis mellifera with 36 samples.

Results

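The homeobox genes of the honeybee, among them the Hox cluster, were followed through embryogenesis in single female and male embryos. Members were taken from the deposited annotation as the genes whose product name contains homeobox, homeotic, homeodomain or the name of a Hox gene, with a list of 5 genes left out. This gave 58 of the 12365 genes of the deposited tables, and 7 of them are Hox genes. By product name 4 of the 58 hold no homeodomain but carry a related name, namely the kinase hipk, the Polycomb protein LOC412117 (polyhomeotic-like), ash2 and Deaf1, and for LOC551885 and LOC726978 the name leaves this uncertain. The other classes were 15 NK-like, 10 paired-like, 6 LIM, 4 TALE, 4 Hox-related, 2 sine oculis-type, 2 CUT, 1 prospero and 1 zinc finger gene.

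Homeobox genes encode transcription factors that bind DNA through a shared fold, the homeodomain. In insects the Hox genes lie in a cluster and give segments their identity along the body axis, from labial in the head to Abdominal-B in the posterior abdomen, and they act together with TALE partners such as extradenticle and homothorax. NK-like, paired-like, sine oculis-type and LIM homeobox genes pattern mesoderm, head, eye and nervous system within this frame. 

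The 36 libraries each came from 1 embryo of Apis mellifera. Female (worker, diploid) and male (drone, haploid) embryos were taken at 24, 48 and 72 h after egg laying (AEL) from 2 unmanipulated queens, with 3 embryos for each queen, sex and time point, so that each sex and time has 6 embryos. Total RNA was amplified from the whole embryo, and all embryos of queen 1 form the first batch of the labels and all those of queen 2 the other, so that queen and batch cannot be told apart. The tissue and sex are those of the labels, and a level in a whole embryo cannot tell fewer expressing cells from less RNA per cell.

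Counts summed to between 1195774 and 12808580 reads per embryo, with the lowest totals, 1195774 to 2008560, in 72 h males. Homeobox members took 0.0666% to 0.441% of these reads. Levels are given as CPM, the usual counts relative to library size, here scaled by the trimmed mean of M-values (TMM), as the lowest, median and highest of the 6 embryos. Comparisons of genes with each other use RPKM, reads scaled by gene length and library total. A gene was called in edgeR where its Benjamini-Hochberg adjusted p was under 0.05 and its log2 fold change was above 1 or below -1. Of the 58 members 41 passed the filter on low counts and were tested among 9575 genes, and 17 did not pass. The counted genes made up 79.3% ± 1.97 of the library total behind RPKM in 24 h females but 25.96% ± 4.82 in 72 h males (SD, n = 6 each). Scaling to that total in place of TMM moved the median log2 fold change of all genes to -1.51 for males at 72 against 48 h and to 2.97 for females against males at 72 h, where TMM gave -0.11 and 0.41. Changes in males at 72 h are therefore relative to the other counted genes.

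With TMM, members rose more often than they fell over both steps and in both sexes, but in males not under the library total behind RPKM. In females 20 of the 41 tested members were higher at 48 than at 24 h and 6 were lower, where 32.4% of all tested genes were higher and 26.5% lower. From 48 to 72 h 20 members were higher in females and 7 lower, against a background of 20.7% and 14%. In males 9 members were higher at 48 than at 24 h and 1 was lower, with 10.9% and 10.4% of all genes called. Over the second step 23 members were higher in males and 1 was lower, against 16.7% and 11.6%. The members higher made up 48.8%, 48.8%, 22% and 56.1% of those tested over these 4 steps. From 24 to 72 h 29 members were higher and 2 lower in females, where the background was 34.4% and 25%, and 27 were higher and 2 lower in males, where it was 22.9% and 22.3%. The median log2 fold change of members from 24 to 72 h was 3.01 in females and 2.02 in males, beside 0.17 and -0.09 for all tested genes. With the library total behind RPKM as the scale, 4 members were higher and 6 lower in males over the first step, 7 and 12 over the second, and 10 and 14 from 24 to 72 h. Of all 9575 tested genes 238 were then higher and 3683 lower, 407 and 6085, and 587 and 7194. On this scale too, members were higher more often and lower less often than all tested genes.

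**Figure D1:**
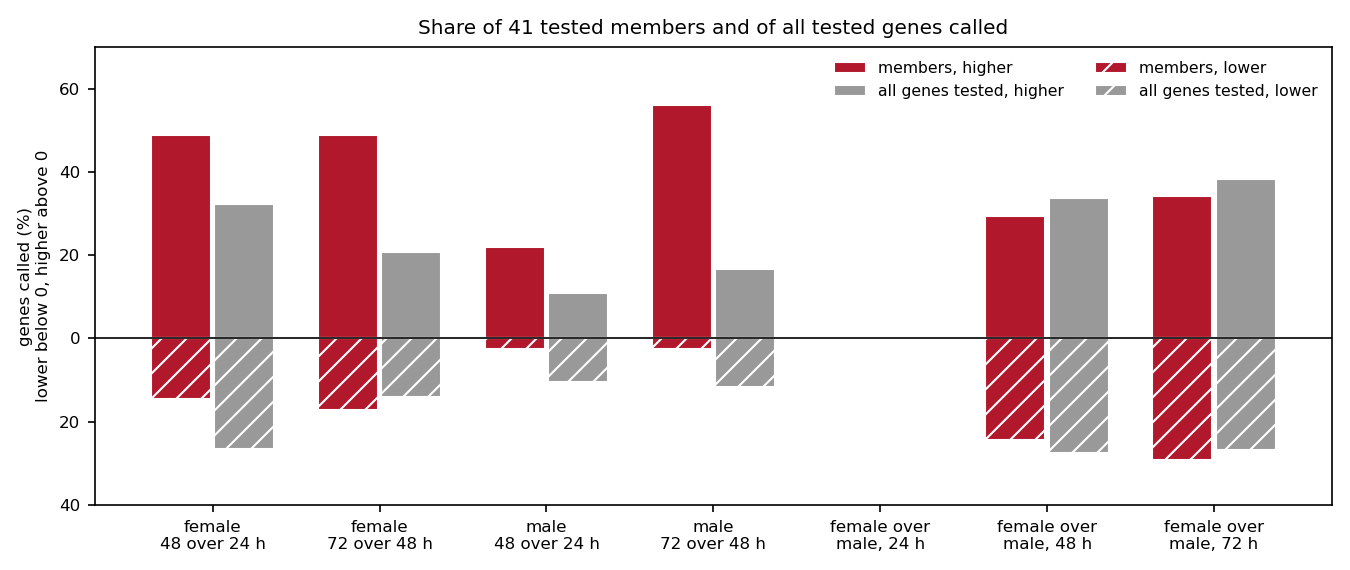
Percent of the 41 tested members (red) and of all 9575 tested genes (grey) called in each comparison, higher above 0 and lower, hatched, below 0. In males at 72 against 48 h 56.1% of members were higher, beside 16.7% of all genes, and at 24 h no member was called between the sexes.

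Between females and males no tested member was called at 24 h in edgeR, where 0.0104% of all genes were called higher and 0.0836% lower in females, and 9 members had an unadjusted p under 0.05. DESeq2's Wald test called 0 members higher and 1 lower, beside 4 and 21 of all genes. At 48 h 12 members were higher in females than in males and 10 lower, with 33.7% and 27.6% of all genes called. At 72 h 14 were higher and 12 lower, with 38.2% and 26.8%. For the sexes these shares were close to the background with TMM. With total counts 24 members were higher and 3 lower at 72 h, beside 5849 and 1443 of all tested genes. Under the library total behind RPKM 32 members were higher and 1 lower at 72 h, beside 7543 and 740 of all tested genes. The shift towards higher calls in females on these scales was thus shared by all tested genes and was not particular to members. The change over a step itself differed between the sexes in 17 members for 24 to 48 h, with 10 more positive in females and 7 more negative, against 29.3% and 26.5% of all genes. From 48 to 72 h it differed in 25, with 11 more positive and 14 more negative, against 23.3% and 20.5%.

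**Figure D2:**
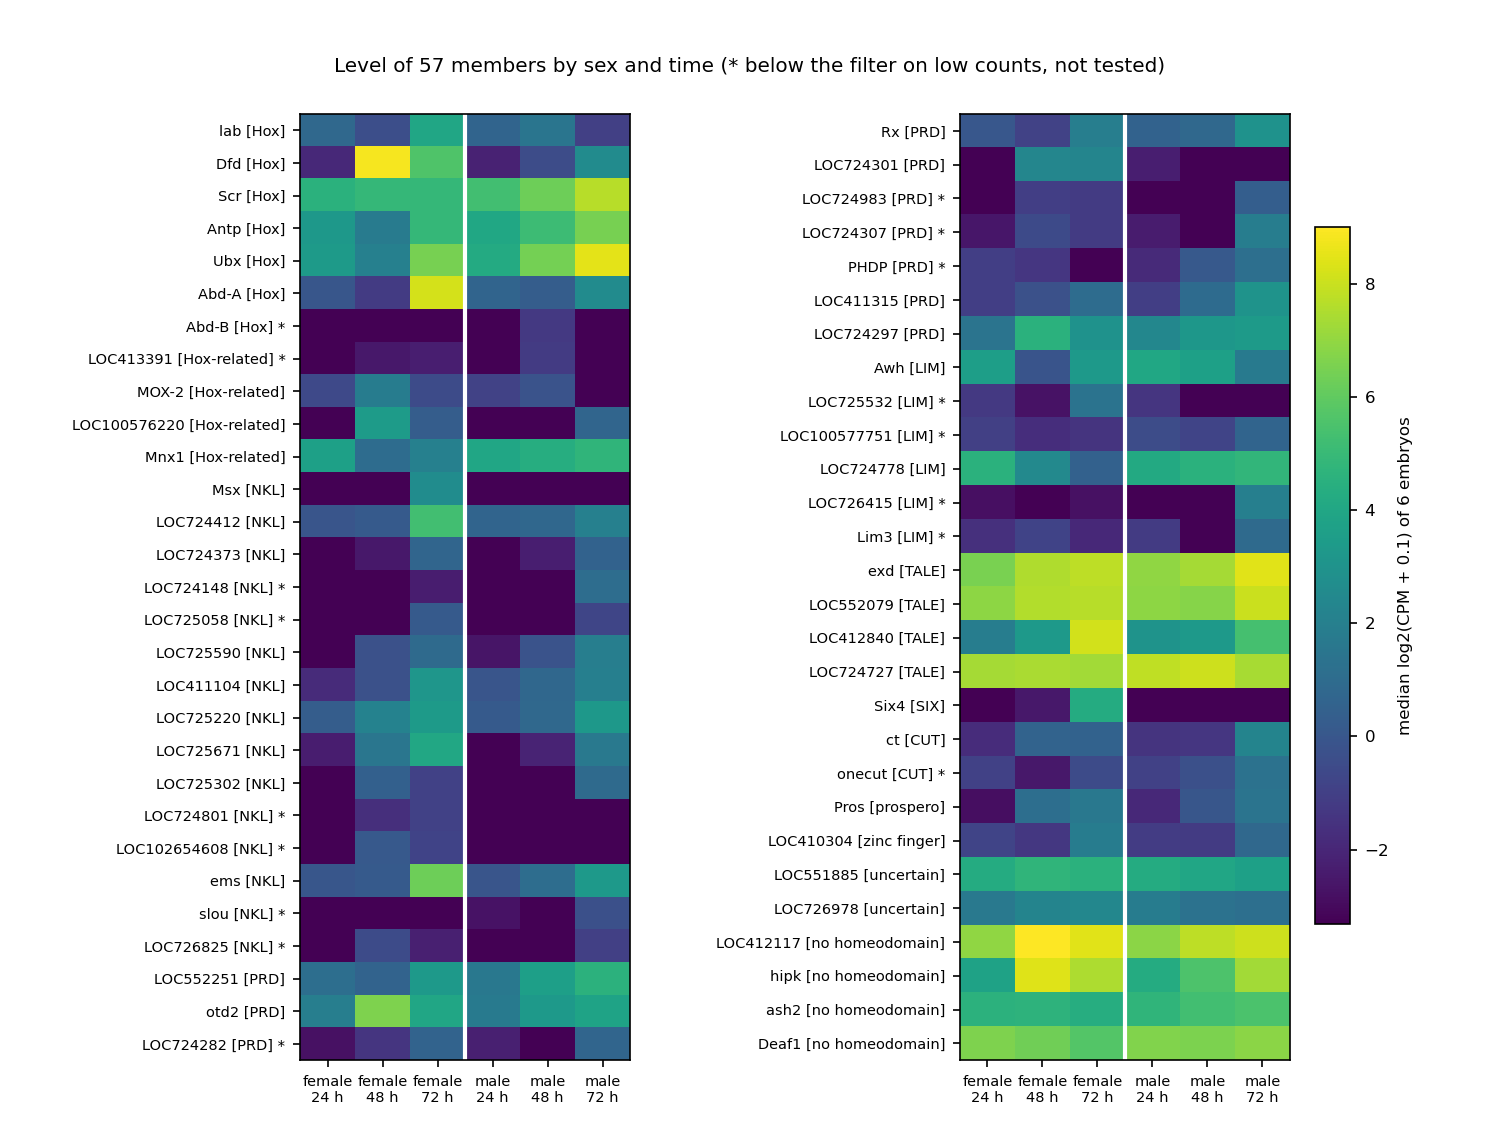
Median log2(CPM + 0.1) of 6 embryos for each of 57 members (rows, by class) in females and males at 24, 48 and 72 h AEL (columns). Dfd is bright only at 48 h and, less so, at 72 h in females, Abd-A in 72 h females, Scr and Ubx in 72 h males, and exd, LOC552079, LOC724727 and LOC412117 in all columns.

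The 7 Hox genes among the members lie on the minus strand of linkage group 16 of the Amel_4.5 build in the order lab (2215962 to 2233474), Dfd (2438219 to 2448876), Scr (2524863 to 2559400), Antp (2705222 to 2722221), Ubx (2722977 to 3058520), Abd-A (3164330 to 3199691) and Abd-B (3419510 to 3426547). A further member, LOC724297, named OTX-like and put in the paired-like class by that name alone, lies between lab and Dfd at 2375149 to 2379681. Mxp (maxillopedia), at 2274135 to 2324457 between lab and the OTX-like gene, is not matched by the rule and was not tested. Its female medians were 0.0875, 0.277 and 1.15 CPM at 24, 48 and 72 h. The called rises in females did not follow this order. Dfd and the OTX-like gene rose from 24 to 48 h, lab, Antp, Ubx and Abd-A rose from 48 to 72 h, and Scr was not called over either step. In males, with TMM, Dfd, Antp and Ubx were called higher over both steps and Scr and Abd-A over the second only. Under the library total behind RPKM the calls of the first male step of Dfd (1.64) and Antp (0.11) and of the second male step of Antp (0.31), Ubx (0.86), Scr (0.21) and Abd-A (0.92) were lost. Genes of 1 cluster are not replicates, so the order was described and not tested.

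Dfd, which in Drosophila specifies the mandibular and maxillary segments, had the largest log2 fold change of any tested member over a step. In females it had 0, 0.166 and 0.540 CPM at 24 h, 233, 449 and 794 CPM at 48 h, and 43.6, 48.7 and 59.1 CPM at 72 h. In males it had 0, 0.124 and 0.318 CPM at 24 h, 0, 0.638 and 1.74 CPM at 48 h, and 1.97, 5.98 and 42.1 CPM at 72 h. Every 48 h female was above every other embryo. The log2 fold change in females was 11.38 ± 0.46 (SE) for 48 against 24 h (edgeR, adjusted p = 3.4e-24) and -3.26 ± 0.28 for 72 against 48 h (edgeR, adjusted p = 2.3e-13). In males it rose by 2.44 ± 0.89 (edgeR, adjusted p = 0.022) and then by 3.68 ± 0.59 (edgeR, adjusted p = 2e-06). The first male step rests on 20 reads at 48 h and 8 at 24 h and was not called in queen 2 alone, nor, at 1.70, without replicate 6 of the 48 h males of queen 1. Females were above males by 9.15 ± 0.43 at 48 h and by 2.20 ± 0.37 at 72 h on the log2 scale.

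Abd-A, the Hox gene of the abdomen, was low in both sexes until the last time point. Females had 0.350, 0.878 and 0.966 CPM at 24 h, 0, 0.342 and 0.901 CPM at 48 h, and 245, 292 and 540 CPM at 72 h. Males had 0.957, 1.48 and 2.86 CPM, 0, 1.14 and 2.90 CPM, and 2.45, 6.04 and 18.3 CPM at these times. At 72 h the sexes did not overlap. The log2 fold change for 72 against 48 h was 9.76 ± 0.38 in females (edgeR, adjusted p = 7e-24) and 2.36 ± 0.52 in males (edgeR, adjusted p = 0.00021), and the difference between these changes was 7.40 ± 0.76 (edgeR, adjusted p = 6.3e-11). Under the library total behind RPKM the male change over this step was 0.92 and not called, and that from 24 to 72 h had the opposite sign.

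Labial, the head Hox gene at the start of the cluster, fell and then rose in females. It had 1.62, 1.71 and 2.44 CPM at 24 h, 0, 0.691 and 0.960 CPM at 48 h, and 11.5, 15.3 and 21.2 CPM at 72 h in females. In males it had 0.837, 1.46 and 2.43 CPM, 1.49, 2.71 and 4.18 CPM, and 0, 0.409 and 7.12 CPM. At 48 h all females were below all males, and at 72 h they were all above them. The female log2 fold changes were -1.53 ± 0.42 for 48 against 24 h (edgeR, adjusted p = 0.0011), which was not called in queen 2 alone, and 4.58 ± 0.39 for 72 against 48 h (edgeR, adjusted p = 2.7e-13). No step was called in males with TMM, and 3 of 6 males had a lab read at 72 h.

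Ubx and Antp, which pattern the thorax and, for Ubx, the first abdominal segment in Drosophila, were called higher in males over both steps with TMM, and in females over the second. Ubx had 7.88, 10.6 and 17.02 CPM in females at 24 h, 1.15, 4.10 and 8.58 CPM at 48 h, and 63.6, 90.0 and 123 CPM at 72 h. In males it had 16.5, 18.3 and 21.5 CPM, 31.7, 86.9 and 106 CPM, and 234, 365 and 636 CPM. Its log2 fold change for 48 against 24 h was -1.40 ± 0.27 in females and 2.06 ± 0.23 in males, and for 72 against 48 h it was 4.41 ± 0.27 in females and 2.29 ± 0.23 in males (edgeR, adjusted p at most 9.2e-06). At 48 h the females were all below the males, with a log2 difference of -4.23 ± 0.27. At 72 h the females were again all below, by -2.11 ± 0.23 with TMM, but the difference was -0.86 and not called with total counts, and of the opposite sign, 0.52, under the library total behind RPKM. Under that total the second male step of Ubx was 0.86 and not called.

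Antp had 6.15, 9.41 and 15.3 CPM in females at 24 h, 2.10, 3.39 and 19.5 CPM at 48 h, and 27.5, 29.6 and 36.6 CPM at 72 h. In males it had 7.08, 16.1 and 20.01 CPM, 10.6, 34.2 and 40.6 CPM, and 85.6, 90.0 and 111 CPM. The 48 h females spread widely and overlapped the males, whereas at 72 h all females were below all males. Its female change was -0.44 ± 0.33 and not called for 48 against 24 h and 2.11 ± 0.33 for 72 against 48 h (edgeR, adjusted p = 5.5e-07). In males the log2 fold changes were 1.02 ± 0.32 (edgeR, adjusted p = 0.0071), a call at the edge of the fold threshold, and then 1.68 ± 0.33 (edgeR, adjusted p = 3.7e-05), which was 0.31 and not called under the library total behind RPKM. The call of the first male step was lost with total counts, with the library total behind RPKM, without the filter, in queen 1 alone and without the 72 h males. It was also lost, at 0.84 to 0.99, without any 1 of 6 males, namely replicate 26 of the 24 h and replicates 4 and 8 of the 48 h embryos of queen 1, and replicates 8 and 9 of the 24 h and 21 of the 48 h embryos of queen 2. The females differed from the males at 72 h by -1.65 ± 0.32 on the log2 scale with TMM, by -0.41, not called, with total counts, and by 0.93 under the library total behind RPKM.

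Scr, which in Drosophila acts in the labial and prothoracic segments, was not called over any step in females. Its female levels were 15.1, 23.3 and 42.5 CPM at 24 h, 24.5, 29.1 and 47.0 CPM at 48 h, and 21.7, 29.1 and 45.6 CPM at 72 h, and these overlapped. In males Scr had 22.7, 38.5 and 46.6 CPM, 19.6, 77.0 and 87.1 CPM, and 125, 203 and 210 CPM. The log2 fold changes in females were 0.32 ± 0.23 and -0.11 ± 0.23, and neither was called. In males the change was 0.79 ± 0.24 and not called for 48 against 24 h, and 1.56 ± 0.24 for 72 against 48 h (edgeR, adjusted p = 9.5e-07). The median RPKM of Scr in males was nearly constant, at 6.32, 6.14 and 6.18, and under the library total behind RPKM the second male step was 0.21 and not called.

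Abd-B, the most posterior Hox gene, was below the filter and was not tested. It had no read in any female at 24 and 48 h and 8 reads over 2 of 6 females at 72 h. Males had 3, 7 and 1 reads in all at 24, 48 and 72 h. Its exons overlap those of LOC102656799 on the same strand, so that reads of the 2 genes may be split between them. With so few reads its level could not be measured at these depths. The floor of 3 reads per embryo used for folds is a chosen setting and no measured limit of detection.

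The gene LOC724297 is named OTX-like after the family of the head gene orthodenticle, but this name was not checked against its sequence. It had 1.499, 2.59 and 4.59 CPM in females at 24 h, 19.4, 23.6 and 31.9 CPM at 48 h, and 4.82, 7.65 and 14.6 CPM at 72 h. In males it had 3.59, 5.15 and 6.56 CPM, 6.79, 9.11 and 11.99 CPM, and 6.17, 10.3 and 24.5 CPM. The 48 h females were all above the 48 h males. In females the log2 fold change was 3.06 ± 0.28 for 48 against 24 h (edgeR, adjusted p = 5.8e-13) and -1.52 ± 0.26 for 72 against 48 h (edgeR, adjusted p = 2.5e-06). With TMM no step was called in males.

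**Figure D3:**
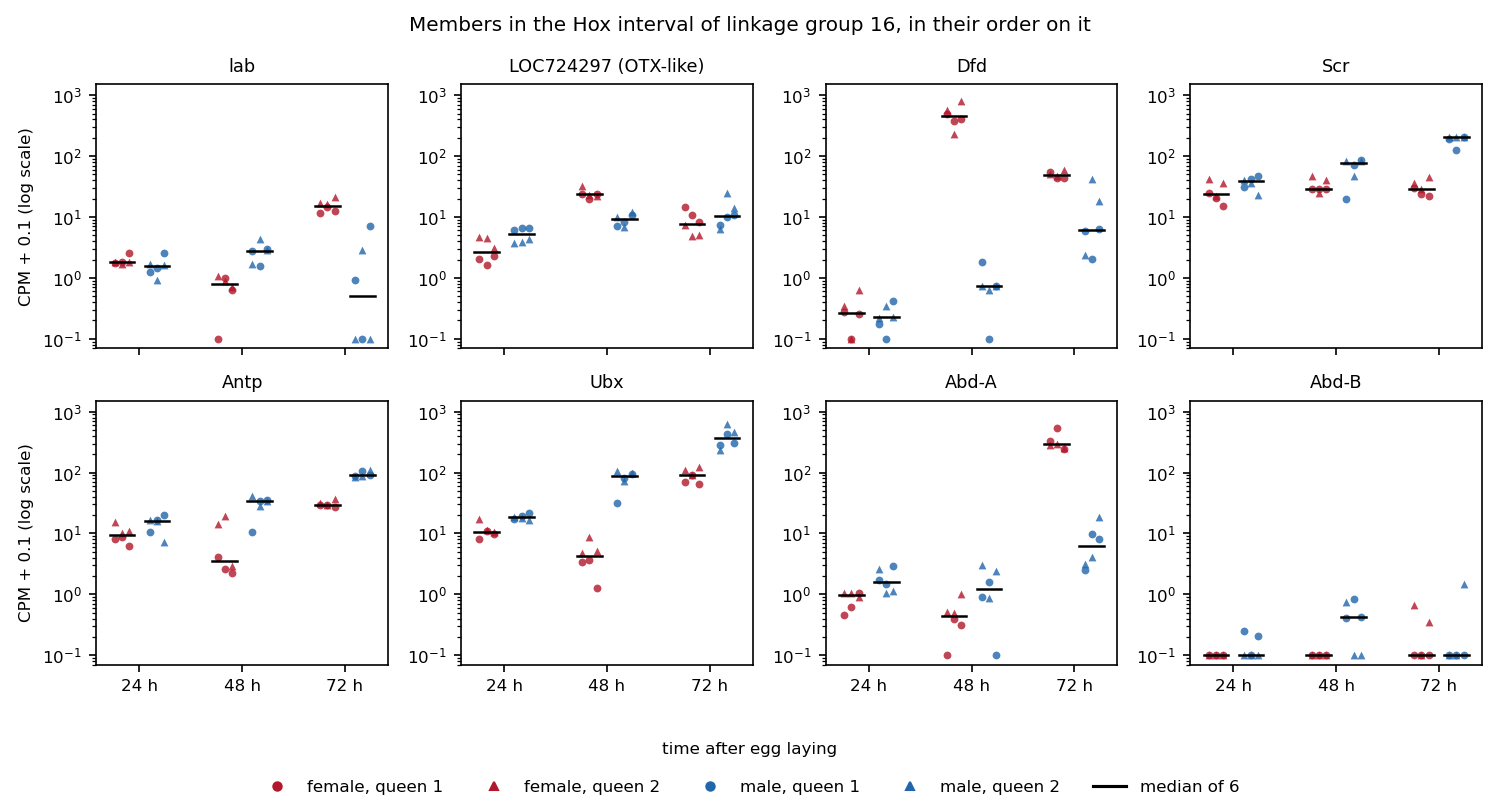
CPM + 0.1 on a log scale in each embryo for the 8 members of the Hox interval in their order on linkage group 16, by time, with females (red) left of males (blue), circles for queen 1, triangles for queen 2 and bars at the median of 6. Dfd is at 233 to 794 CPM in 48 h females and at most 1.74 CPM in 48 h males, and Abd-A at 245 to 540 CPM in 72 h females.

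The division of the female rise between the steps was also given as the log2 fold change of 48 against 24 h over that of 72 against 24 h. This share was 1.40 for Dfd and 1.98 for the OTX-like gene, which passed their 72 h level at 48 h. It was -0.50 for lab, -0.26 for Antp, -0.46 for Ubx and -0.12 for Abd-A, whose 48 h level was not called above that of 24 h. Among these members the genes with an early rise thus lie between lab and Scr, with late genes on both sides. Mxp, which lies in that stretch but is no member, had its highest female median at 72 h and was not tested. Protein-coding genes of the interval that are not members did not keep to this pattern. LOC102656757, between Scr and Antp, had female log2 fold changes of 8.90 ± 0.98 and -3.47 ± 0.59 over the 2 steps, an early rise beyond Scr. LOC100578791, between Abd-A and Abd-B, was called over the second female step only, with 8.43 ± 0.58. The share of Dfd was 1.37 in queen 1 and 1.44 in queen 2, and that of the OTX-like gene was 1.40 in queen 1 and 5.37 in queen 2, where its whole rise was small.

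**Figure D4:**
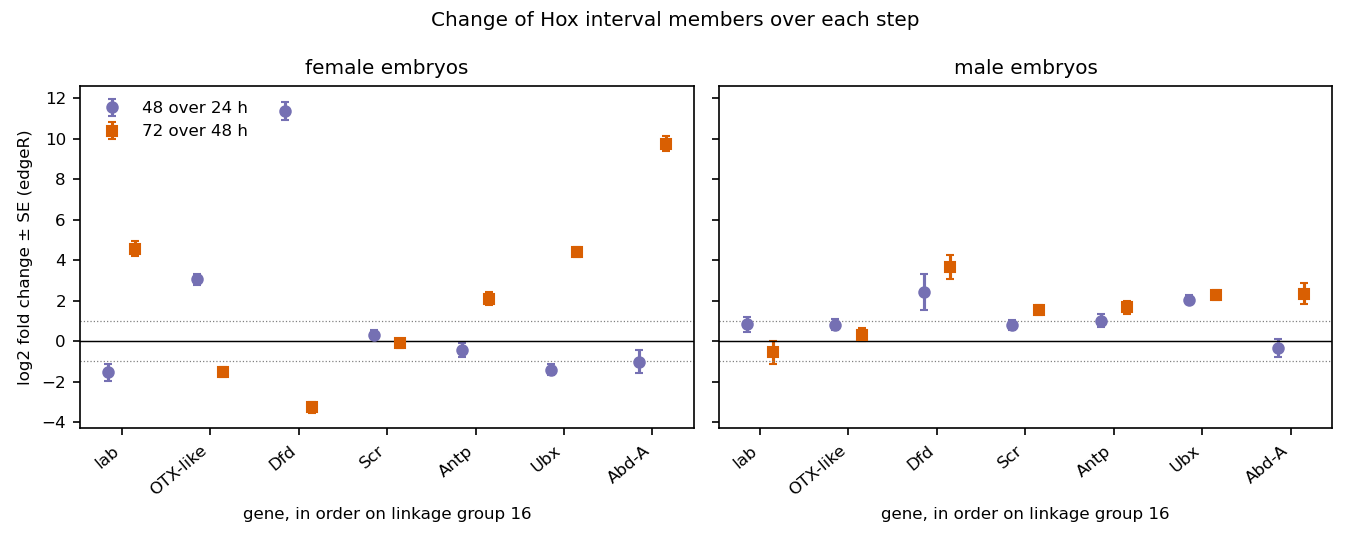
Log2 fold change ± SE (edgeR) of 48 over 24 h (circles) and 72 over 48 h (squares) for the 7 tested members of the Hox interval in their order on linkage group 16, in females (left) and males (right), with dotted lines at 1 and -1. In females Dfd stands at 11.38 for the first step and Abd-A at 9.76 for the second, and in males the changes run from -0.54 to 3.68.

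Of the 4 TALE members 3 were well expressed at all times. Per length, the median RPKM at 24 h was 10.9 in females and 13.6 in males for exd, 17.5 and 16.5 for LOC552079 (homothorax-like), and 22.4 and 29.1 for LOC724727 (PKNOX2-like), beside 0.33 and 0.705 for LOC412840 (araucan-like). Exd and homothorax are partners of Hox proteins in Drosophila. Exd, on linkage group 3 at 1205123 to 1268153, had 64.3, 92.9 and 126 CPM in females at 24 h, 149, 187 and 245 CPM at 48 h, and 169, 217 and 322 CPM at 72 h. In males it had 109, 122 and 132 CPM, 101.7, 160 and 193 CPM, and 318, 344 and 503 CPM. The female rise was called in the first step, with a log2 fold change of 1.07 ± 0.14 (edgeR, adjusted p = 3.7e-09), which was 0.94 and not called under the library total behind RPKM. The male rise was called in the second, with 1.29 ± 0.14 (edgeR, adjusted p = 7.9e-10), which was 0.91 and not called with total counts and -0.13 under the library total behind RPKM.

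LOC552079 had medians of 118, 192 and 201 CPM at 24, 48 and 72 h in females and of 120, 108 and 262 CPM in males. It was called over 48 to 72 h in males alone, with a log2 fold change of 1.44 ± 0.25 (edgeR, adjusted p = 9e-06), and 0.09 under the library total behind RPKM. LOC724727 was not called in any comparison with TMM. Its medians ran from 158 to 173 CPM over the female time points and from 166 to 266 CPM over the male ones. In RPKM, however, males had 23.2 to 37.2 at 24 h and 3.07 to 6.03 at 72 h, where females had 21.6 to 40.7.

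The araucan-like gene LOC412840, of the Iroquois group that patterns the dorsal body and sensory organs in Drosophila, was the TALE member with the largest changes. Females had 2.29, 3.64 and 4.27 CPM at 24 h, 6.30, 9.92 and 16.8 CPM at 48 h, and 137, 288 and 545 CPM at 72 h. Males had 4.63, 8.06 and 10.04 CPM, 4.26, 9.93 and 17.7 CPM, and 35.6, 41.5 and 76.1 CPM. The sexes overlapped at 48 h and were apart at 72 h. The log2 fold change for 72 against 48 h was 4.86 ± 0.28 in females (edgeR, adjusted p = 2.5e-18) and 2.26 ± 0.30 in males (edgeR, adjusted p = 5.6e-08), and the changes differed by 2.60 ± 0.39. Under the library total behind RPKM the male change was 0.83 and not called.

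Several members outside the Hox cluster peaked in females at 48 h. The ocelliless gene otd2, a head gap gene in Drosophila under the name orthodenticle, had 2.70, 3.73 and 5.59 CPM in females at 24 h, 84.6, 98.3 and 139 CPM at 48 h, and 10.8, 15.6 and 20.3 CPM at 72 h. Males had 2.40, 3.23 and 4.91 CPM, 6.52, 9.85 and 12.3 CPM, and 1.54, 13.96 and 31.2 CPM. Every 48 h female was above every male. The female log2 fold changes were 4.67 ± 0.26 (edgeR, adjusted p = 1.6e-19) and -2.82 ± 0.23 (edgeR, adjusted p = 1.6e-13), and that of males was 1.38 ± 0.28 over the first step, or 0.52 and not called under the library total behind RPKM. The rough-like gene LOC100576220, related to a gene of eye development in Drosophila, had 1 read over the 24 h females, 492 at 48 h and 63 at 72 h, with 6.44, 10.9 and 16.8 CPM at 48 h.

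For the rough-like gene the ratio of 48 to 24 h in females was 698, with a 95% exact interval of 125 to 27639 that covers counting error only. No 48 h male had a read of it, so females were at least 13.3-fold higher at that time, against the floor of 3 reads per embryo. In males 7 reads at 72 h against none at 48 h made a rise of at least 1.53-fold. LOC724301, aristaless-like, had 239 reads over the 48 h females and 2 over the 24 h females, a ratio of 170 (46.4 to 1409), and 304 reads at 72 h. The 48 h males had 2 reads of it, and females were 63.4-fold higher (17.4 to 527).

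Among the members without a homeodomain, LOC412117 followed a like course. This Polycomb group gene had 93.9, 123 and 162 CPM in females at 24 h, 548, 616 and 727 CPM at 48 h, and 269, 351 and 457 CPM at 72 h, and 110, 116 and 150 CPM, 196, 221 and 257 CPM, and 208, 272 and 319 CPM in males. It rose in females over the first step, by 2.31 ± 0.14 (edgeR, adjusted p = 9e-19), and no step was called in males with TMM. The kinase hipk, chosen after its values were seen, had medians of 13.7, 340 and 176 CPM in females and 18.9, 47.2 and 158 CPM in males. Deaf1, a DNA-binding protein described on a regulatory element of Deformed in Drosophila, was not called over any single step with TMM. Its medians were 98.5, 81.6 and 51.4 CPM in females and 100, 95.8 and 116 CPM in males. Females were lower than males at 72 h by -1.16 ± 0.11 (edgeR, adjusted p = 1.5e-12), but the sign turned, to 0.08 with total counts and 1.42 under the library total behind RPKM. Exons of Deaf1 overlap 2 other genes on the opposite strand, and without a stated strand its reads are uncertain.

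Some members had their highest level in 72 h females. Six4, which in Drosophila acts in muscle and gonad mesoderm, had no read in any 24 h female, 5 reads in all at 48 h, and 9.32, 18.98 and 29.7 CPM at 72 h. The 48 h females were called above those of 24 h (edgeR, adjusted p = 0.019), but not in either queen alone nor without replicate 15 of the 48 h females of queen 1, and no fold is given at so few reads. Males had 2, 2 and 0 reads in all at the 3 times. Females at 72 h were at least 66.6-fold above those of 24 h and at least 6.33-fold above the 72 h males, against the floor of 3 reads per embryo, and the male depth sets the smaller bound. Msx, of the muscle segment homeobox family, had 345 reads over the 72 h females and 2 over the 48 h females, a ratio of 136 (95% interval 37.4 to 1129). The 72 h males had 1 read of Msx, and the ratio of females to males was 37.1 (6.61 to 1470).

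LOC724412 and ems were chosen after their values were seen. The Msx-like LOC724412 had medians of 0.860, 1.03 and 38.7 CPM in females and 1.48, 1.65 and 4.08 CPM in males, with a log2 fold change for 72 against 48 h of 5.24 ± 0.32 in females. The head gene ems had medians of 0.874, 1.04 and 77.5 CPM in females and 0.863, 2.02 and 9.69 CPM in males, with a log2 fold change over the second step of 5.16 ± 0.34 in females. The muscle markers, 10 genes of which 3 were tested, summed to 182 to 324 CPM in 72 h females and to 33.8 to 77.4 CPM in 72 h males, and to 37.1 to 56.5 CPM in 48 h females. The 3 tested markers did not move together. In females 1 was higher and 1 lower at 72 than at 48 h, beside 20.7% and 14% of all tested genes. Between the sexes at 72 h 1 was higher in females and 1 lower, beside 38.2% and 26.8%. Their part in these results was not tested.

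Some members fell in females from 24 to 48 h. Mnx1, a motor neuron gene in vertebrates, had 12.02, 12.7 and 13.2 CPM in females at 24 h, 0.883, 1.92 and 4.55 CPM at 48 h, and 1.76, 4.07 and 4.92 CPM at 72 h. Males had 13.4, 15.8 and 16.7 CPM, 14.5, 20.5 and 26.3 CPM, and 17.99, 26.3 and 32.4 CPM. Females were all below males at 48 and 72 h, by -3.19 ± 0.25 and -2.78 ± 0.25 (edgeR, adjusted p at most 3.3e-13). Under the library total behind RPKM the difference at 72 h was -0.20 and not called, and in RPKM the sexes overlapped at that time, with 0.34 to 1.06 in females and 0.57 to 1.34 in males. LOC724778, LMX1B-like and of the LIM class, had medians of 23.6, 5.42 and 1.32 CPM in females and 17.8, 23.4 and 27.9 CPM in males. It fell over both female steps, by 2.24 ± 0.21 and 1.84 ± 0.25 on the log2 scale. For these 2 genes no step was called in males with TMM. In RPKM males had 2.18 to 2.83 at 24 h and 0.57 to 1.34 at 72 h for Mnx1. For LOC724778 they had 3.75 to 5.28 and 0.67 to 1.93.

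Awh, a LIM gene named for the Drosophila Arrowhead that acts in imaginal tissue, fell and returned in females, with medians of 11.8, 0.805 and 9.76 CPM. In males its medians were 15.9, 12.6 and 3.30 CPM. The log2 fold changes in females were -4.04 ± 0.38 and 3.71 ± 0.39 (edgeR, adjusted p at most 6.9e-11), and in males that for 72 against 48 h was -1.78 ± 0.47 (edgeR, adjusted p = 0.0016), from 19 reads at 72 h and not called in queen 2 alone.

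The germ line and maternal markers vas and nanos were summed, and only 1 of the 2 was called lower over the first female step, beside 26.5% of all tested genes. Their summed level was 1741 to 1928 CPM in 24 h females, 119 to 165 CPM at 48 h and 89.8 to 122 CPM at 72 h. In males it was 1796 to 2110, 931 to 1370 and 977 to 1323 CPM. The 3 nervous system markers Syn, Syt1 and LOC410689 summed to 40.7 to 56.1, 8.45 to 15.4 and 16.8 to 41.7 CPM in females, and to 35.1 to 48.8, 21.2 to 52.8 and 67.7 to 134 CPM in males. Over the first female step 1 of these 3 was higher and 2 were lower, beside 32.4% and 26.5% of all tested genes. The part of these markers in the change of any homeobox gene was not tested. The 12 royal jelly genes, markers of an adult gland, had median sums of 11.8 to 21.4 CPM in every sex and time.

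**Figure D5:**
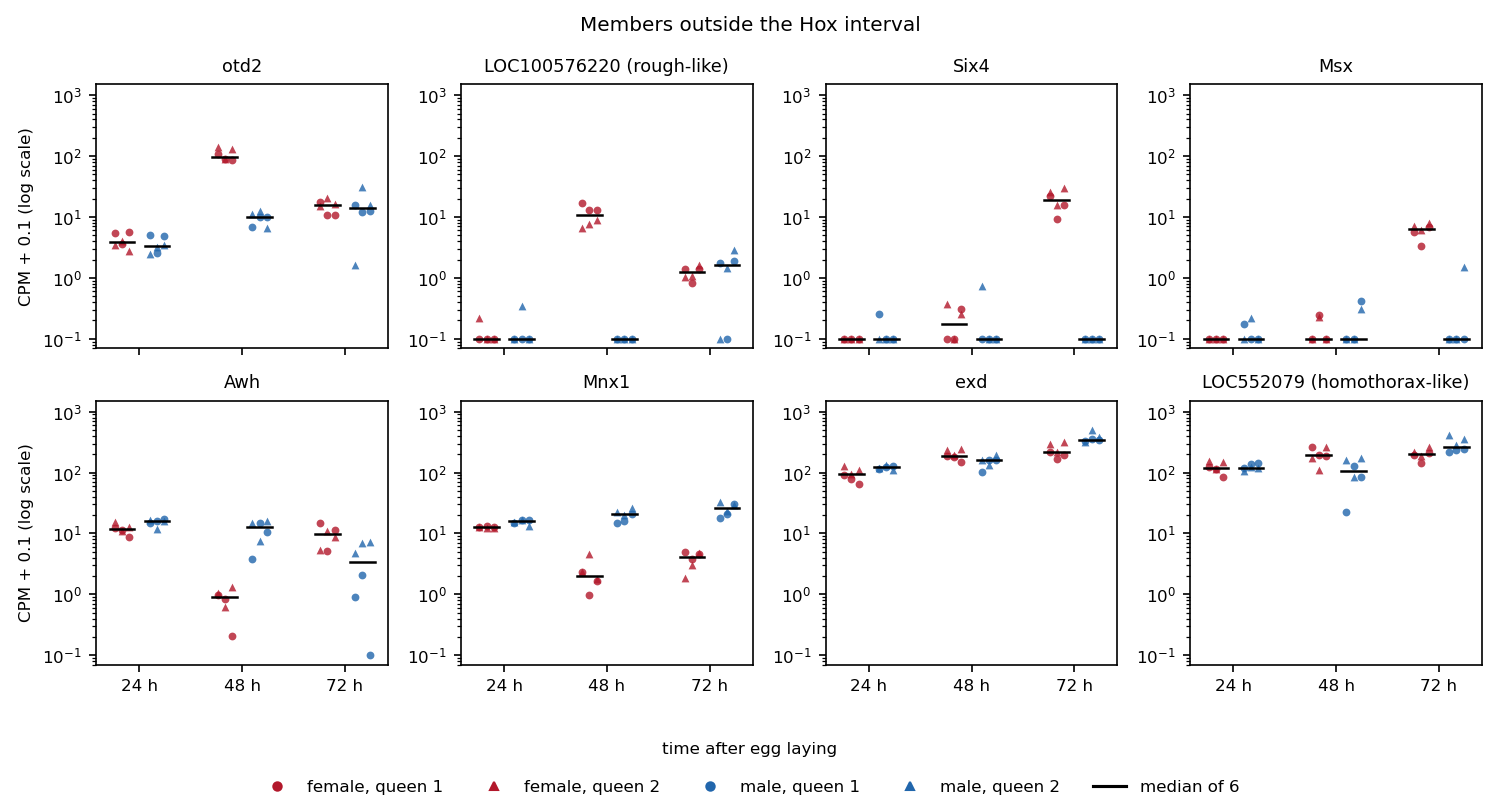
CPM + 0.1 on a log scale in each embryo for 8 members outside the Hox interval, by time, with females (red) left of males (blue), circles for queen 1, triangles for queen 2 and bars at the median of 6. Otd2 stands at 84.6 to 139 CPM in 48 h females, Six4 at 9.32 to 29.7 CPM in 72 h females, and Mnx1 at 14.5 to 26.3 CPM in 48 h males.

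LOC725590, named B-H2 after a gene of sense organs in Drosophila, had medians of 0, 0.735 and 1.804 CPM in females and 0.0598, 0.799 and 3.82 CPM in males, with 1 male of 72 h at 32.3 CPM. It rose over the first step by 3.18 ± 0.72 in females and 2.61 ± 0.80 in males, and females were below males at 72 h by -1.90 ± 0.50, which was -1.08 and not called without the highest male, replicate 24 of queen 2, -0.65 and not called with total counts, and 0.78 under the library total behind RPKM. The first male step of LOC725590 was not called in queen 1 alone. Pros, prospero, which drives neural precursors to differentiate in Drosophila, rose over the first step by 4.28 ± 0.58 in females and by 2.33 ± 0.65 in males (edgeR, adjusted p at most 0.0030), in males from 22 reads at 48 h and 10 at 24 h and not called in queen 1 alone. LOC725671, Nkx-2.5-like, had medians of 0.0953, 2.79 and 16.7 CPM in females, and 31 reads over the 72 h males against 3 over the 48 h males, a ratio of 40.3 (95% interval 12.6 to 206). LOC725302, H2.0-like, had 70 reads over the 48 h females and none at 24 h, at least 5.27-fold, and 16 against 2 reads in males at 72 against 48 h, a ratio of 31.2 (7.33 to 280).

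Of the 9 tested NK-like members 7 were higher at 48 than at 24 h and 8 at 72 than at 48 h in females, with 1 and 7 for these steps in males, and none was called lower. Beside these counts stand the 32.4%, 20.7%, 10.9% and 16.7% of all tested genes called higher over the same 4 steps, and the single male call of the first step is near that background. Of the 6 tested paired-like members 3 were higher over each step in males with none lower, and in females 3 were higher over the first step and 3 higher and 2 lower over the second. Of the 4 tested TALE members none was lower over a step in either sex. The 2 tested LIM members both fell over the first step in females. Of all tested genes 26.5% and 14% were called lower over the female steps and 10.4% and 11.6% over the male ones. With so few genes in a class these lower counts say little about it.

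The 17 members below the filter were Abd-B, the LIM genes LOC725532, LOC100577751, LOC726415 and Lim3, the paired-like LOC724282, LOC724983, LOC724307 and PHDP, the NK-like LOC724148, LOC725058, LOC724801, LOC102654608, slou and LOC726825, the Hox-related LOC413391, and onecut. The highest count of any of them in 1 embryo was 65 reads, for LOC725532. How many members had a read was also compared after thinning each embryo to 1195774 reads. Females had 29.2 ± 2.40, 38.8 ± 2.14 and 46.8 ± 2.86 members with a read at 24, 48 and 72 h, and males 30 ± 2.28, 32.8 ± 2.40 and 43.0 ± 4.43 (SD, n = 6 each). The two-sided exact permutation test gave p = 0.626, 0.00433 and 0.119 for the sexes at these times, and 0.0130 for 48 h after adjustment over the 3 times. Within each queen, with 3 embryos against 3, the exact p at 48 h was 0.1, the smallest value this design allows.

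Regulators of the Hox genes that are not members were counted from lists. Polycomb and trithorax group genes hold Hox genes in their silent or active state. Of 19 such genes 3 were higher and 6 lower at 48 than at 24 h in females, and 1 was higher and 4 lower at 72 than at 48 h, where all tested genes had 32.4% and 26.5%, then 20.7% and 14%. In males 2 were higher and 3 lower, then 2 higher and 1 lower, beside 10.9% and 10.4%, then 16.7% and 11.6%. At 72 h, with TMM, 10 of 19 were lower in females than in males, beside 26.8% of all genes, and none was higher, beside 38.2%. These genes were not examined under the library total behind RPKM, which moved the median of all genes for this comparison to 2.97. The most abundant, LOC102654959 (osa-like), rose by 2.93 ± 0.16 over the first female step and by 1.02 ± 0.15 over the male one, whereas LOC411539, an MLL complex subunit, had -1.25 ± 0.10 in females and 1.06 ± 0.10 in males. A further one, osa, was called over the second female step alone, with -1.08 ± 0.16.

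The 4 gap genes of the list, which in Drosophila set the domains of Hox genes, summed to a median of 52.0, 53.1 and 18.2 CPM in females and 69.1, 329 and 792 CPM in males at 24, 48 and 72 h. Knr (knirps) had log2 fold changes of -2.63 ± 0.23 and -4.11 ± 0.36 over the female steps and of 2.11 ± 0.21 and 1.45 ± 0.21 over the male ones. Hb (hunchback) fell over the second female step by 3.12 ± 0.47 and rose over the second male one by 2.47 ± 0.43. Knrl rose over the first female step by 8.72 ± 0.43. The gap genes too were examined with TMM only. Under the library total behind RPKM the median of all genes for males at 72 against 48 h was -1.51.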

How the data were processed

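Reads of 36 single honeybee embryos had been trimmed with cutadapt and the FASTX-Toolkit, aligned to Amel_4.5 with TopHat2 and reduced to unique alignments by the authors. The authors deposited counts per gene without normalization, and RPKM, which divides by gene length and a library total. Dividing counts by RPKM and length gave that total back. Gene starts and ends come from the deposited annotation of Amel_4.5. The counting tool and its use of strand are not given in the sources used here. Eggs were laid within 3 h by the methods and 2 h by the labels.

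Counts were fitted with edgeR 4.0.16 in R 4.3.3 (quasi-likelihood F-test on TMM-scaled libraries, genes kept by filterByExpr at a minimum count of 10 and total of 15, p-values adjusted by Benjamini-Hochberg over 9575 genes), over all embryos in 6 groups of sex and time with queen as a term. SE is the absolute log2 fold change over the root of F. On simulated counts the fit recovered most of the changes put in. Detection was compared by two-sided exact permutation tests in scipy 1.17.1. Named members are those of the Hox interval and the TALE class, the 3 highest and 3 lowest called log2 fold changes of each step, sex comparison and interaction, and the 5 highest in RPKM at 24 h. Folds against groups at 0 reads use a floor of 3 reads per embryo, intervals are exact 95% intervals on the ratio of summed reads, and both cover counting error only. P-values measure the spread between single embryos. Members and lists were chosen with earlier results of these data known, and list patterns were corrected against the product names. Tried in place of these were upper-quartile factors, total counts, the Wald test of DESeq2 1.42.0, that tool's size factors in edgeR, the library total behind RPKM, no filter, an unadjusted p under 0.01, single queens, no queen term, leaving out each embryo, the 72 h males or the members without a sure homeodomain, and RPKM on a log2 scale with 0.1 or 1 added. The values of 1 member are not reported here, although it is counted. Other deposited or reported data were not analysed here.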

Additional observations from a re-analysis of the deposited data

Results flagged for a closer look

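These results stand out because the change of a member over a step differed between the sexes by the interaction of sex and time in edgeR. The value is the female log2 fold change minus the male one, relative to the other counted genes.

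Over 24 to 48 h the female change was the more positive by 8.94 for Dfd, 9.88 for LOC100576220, 7.40 for LOC724301, 3.29 for otd2, 2.25 for LOC724297, 1.44 for LOC412117 and 1.24 for LOC412840. It was the more negative, with differences of -3.53 for Awh, -3.46 for Ubx, -2.90 for Mnx1, -2.59 for LOC724778, -2.36 for lab and -1.45 for Antp. At 48 h the sexes overlapped for Antp and LOC412840.

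Over 48 to 72 h the female change was the more positive by 9.76 for Six4, 7.40 for Abd-A, 5.74 for Msx, 5.49 for Awh, 5.13 for lab, 2.60 for LOC412840 and 2.12 for Ubx. The difference was -9.27 for LOC100576220, -6.94 for Dfd, -5.61 for LOC725302, -3.40 for otd2, -2.70 for LOC725671, -2.16 for LOC725590, -2.05 for LOC724778, -1.84 for LOC724297, -1.67 for Scr, -1.44 for LOC552079, -1.07 for LOC412117 and -1.03 for exd. For Dfd, lab, Ubx and Abd-A these calls held without any single embryo.

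Values for Six4, Msx, LOC100576220, LOC724301, LOC725302 and LOC725671 rest on groups with at most 3 reads, so that their size depends on the prior count of the fit. Leaving out 1 embryo ended the call for Six4 (7.26), Msx (5.08 and 5.27), LOC100576220 over the first step (8.27), LOC412117 over the second (-0.99), LOC725590 (-1.33) and, for 6 different embryos, exd (-0.99 to -0.95). Under the library total behind RPKM the second-step values of LOC412117, exd, LOC552079 and Scr had the opposite sign, and those of LOC724297 (-0.05), LOC724778 (-0.29), LOC725590 (-0.27) and LOC725671 (-0.81) were no longer called, nor was the first-step value of Antp (-0.64). With total counts the calls of LOC412117 (-0.43), exd (-0.39), LOC552079 (-0.80), LOC725590 (-1.50) and, over the first step, Antp (-0.86) ended. In 1 or both queens alone the calls of Six4, Msx, exd, LOC725590 and LOC725671 over the second step and of LOC724301, LOC100576220 and LOC412840 over the first ended.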

How the results depend on the processing

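No paired analysis was possible because each embryo was sampled at 1 time only and the number in its label names that embryo and no pair. Members could not be restricted to proteins with a homeodomain signature, since no protein sequences were used, and that alternative was not run.

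Under the library total behind RPKM, chosen after seeing the data, the members higher and lower were, for males, 4 and 6 over the first step, 7 and 12 over the second and 10 and 14 over the whole time, 32 and 1 for females against males at 72 h, 21 and 5 for the interaction over 48 to 72 h, and 18 higher for that over 24 to 48 h. Of all tested genes 238 and 3683, 407 and 6085, and 587 and 7194 were called in these male comparisons. Between the sexes at 72 h it was 7543 and 740, for the interactions 6337 and 494, then 4149 higher. With total counts 24 members were higher and 3 lower in females at 72 h, beside 5849 and 1443 of all genes. In the interaction over 24 to 48 h 17 members were higher, beside 3839 of all genes. In males 2 members were lower over the second step and 5 over 24 to 72 h, beside 2267 and 4039 of all genes. DESeq2's Wald test also gave 17 members for the interaction over 24 to 48 h, beside 3429 of all genes. Without the filter 20 members were lower in females at 72 h. The lower count of males at 72 against 24 h was 1 with DESeq2 size factors, upper-quartile factors, DESeq2's Wald test, queen 1 alone and the unadjusted p under 0.01, and that at 72 against 48 h was 0 in queen 2 alone. For females against males at 24 h 1 was lower with DESeq2's Wald test, without the filter and in queen 1 alone, and 3 with the unadjusted p. Leaving out each embryo gave 0 to 1 lower at 24 h between the sexes, 1 to 2 lower in males at 72 against 48 h and 1 to 3 at 72 against 24 h. All other counts stayed within 1.5 times, also without the 6 members of no or uncertain homeodomain.

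Of 154 calls of named members, 153 held with DESeq2 size factors, 138 with total counts, 116 under the library total behind RPKM, 154 without the queen term and 139 in queen 2 alone, and of 147 in queen 1 alone 131 held. Leaving out 1 embryo kept 5507 of 5544. Opposite signs arose under the library total behind RPKM for males at 72 against 24 h, in LOC412117 (-1.16), otd2 (-0.35), exd (-0.71), LOC552079 (-1.08), LOC724297 (-1.17) and Abd-A (-0.26). They arose for males at 72 against 48 h in exd (-0.13), and for the interaction over 48 to 72 h in LOC412117 (0.72), exd (0.74), LOC552079 (0.28) and Scr (0.035). For females against males at 72 h they arose in LOC725590 (0.78), LOC725302 (0.93), Deaf1 (1.42, and 0.081 with total counts), Antp (0.93) and Ubx (0.52). The cause was not tested. The depth of 72 h males limits what can be seen at low levels.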

Other observations

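Between lab and Abd-B the count tables hold 30 non-coding genes, of which 17 were tested. In females 14 of these were higher and 2 lower at 72 than at 48 h, where the Hox genes had 4 higher and 1 lower of 6 tested. Of all tested genes 20.7% were higher and 14% lower over this female step. In males 3 non-coding genes were higher over that step, near the 16.7% of all genes. Between the sexes at 72 h 11 were higher in females and 3 lower with TMM, beside 38.2% and 26.8% of all genes. Other scales were not examined for these genes.

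Those named next were chosen after their values were seen. LOC102655707, on the plus strand within the span of Ubx (2868037 to 2876434), had medians of 84.5, 5.95 and 1.54 CPM in females at 24, 48 and 72 h and of 86.9, 84.1 and 95.9 CPM in males. Its log2 fold change in females was -3.80 ± 0.19 for 48 against 24 h (edgeR, adjusted p = 7.5e-21). LOC102655257, just before Antp on the linkage group (2693960 to 2703764), had medians of 23.02, 6.76 and 117 CPM in females and 34.6, 97.9 and 160 CPM in males. LOC102656349 (3377824 to 3387612), between Abd-A and Abd-B, had medians of 16.9, 2.00 and 37.9 CPM in females and 18.4, 31.7 and 36.2 CPM in males. Since the strand used in counting is not stated in the sources used here, how reads of Ubx and of the plus-strand gene within its span were divided is uncertain.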
